A study of Mus musculus with 3 samples.

Results

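The 10 genes described here are the immediate-early genes Fos, Fosb, Jun, Junb, Jund, Egr1, Ier2, Ier3, Atf3 and Zfp36, taken by name from the 23185 probe sets that carry 1 gene symbol; all 10 were measured. The cells were long-term haematopoietic stem cells from mouse bone marrow, sorted as Lin-, ckit+, Sca+, Flk2-, CD48- and CD150+. After a night in serum-free StemSpan SFEM medium the sorted cells were either left unirradiated (0 Gy) or given γ-irradiation at 0.02 Gy or at 2.5 Gy, and RNA was taken 2 hours later. The study's question is the immediate response to low doses, with the unirradiated cells as control. Each dose has 1 array, and by the labels the 3 groups share the sort, the culture and the sampling time and differ in dose. The labels used here name no strain, age or sex and no number of animals behind an array.

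Immediate-early genes are transcribed within minutes of a stimulus from factors already present in the cell, without new protein synthesis, and most of their mRNAs are short-lived. Jun, Junb and Jund encode the Jun subunits of the AP-1 transcription factor, which bind DNA as pairs with each other or with Fos subunits (Fos, Fosb) or Atf3. Egr1 encodes a zinc finger transcription factor induced through serum response factor, Ier2 and Ier3 encode small proteins of the early response, and Zfp36 encodes tristetraprolin, which binds AU-rich elements in inflammatory mRNAs and speeds their decay. In blood stem cells these genes respond to cytokines, stress and DNA damage.

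Promoter sequences are shown for the 4 genes whose 2.5 Gy value was at least 2-fold above the unirradiated value, and for Fos, as an example of an AP-1 partner gene whose value was not. They come from RefSeq (GRCm38.p6) and run from 250 bases before the annotated start to 50 bases after it. Of the 10 genes, 8 had a promoter in that set, and Egr1 and Ier2 did not. Each is written 5′ to 3′, and capitals mark matches on either strand to 8 motifs: the CArG box bound by serum response factor, the NF-κB site, TGACGT (the core of the CRE), TGANTCA (AP-1), GCGNGGGCG (Egr), CCGGAAGT (Ets), GGGCGG (the Sp1 GC box) and TATAAA (the TATA box).
Zfp36, chr7:28379179-28379478 (- strand): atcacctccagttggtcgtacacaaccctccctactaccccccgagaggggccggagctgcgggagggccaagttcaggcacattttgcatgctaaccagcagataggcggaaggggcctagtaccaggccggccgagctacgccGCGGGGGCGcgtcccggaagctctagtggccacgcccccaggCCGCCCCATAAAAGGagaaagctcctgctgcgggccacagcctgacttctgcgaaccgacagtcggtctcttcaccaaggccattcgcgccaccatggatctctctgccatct
Jun, chr4:95052173-95052472 (- strand): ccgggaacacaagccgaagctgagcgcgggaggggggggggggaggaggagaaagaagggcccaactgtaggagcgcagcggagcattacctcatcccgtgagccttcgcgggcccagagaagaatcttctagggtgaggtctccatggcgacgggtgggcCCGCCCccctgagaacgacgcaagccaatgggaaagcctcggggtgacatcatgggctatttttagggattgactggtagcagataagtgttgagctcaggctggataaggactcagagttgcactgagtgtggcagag
Junb, chr8:84978699-84978998 (- strand): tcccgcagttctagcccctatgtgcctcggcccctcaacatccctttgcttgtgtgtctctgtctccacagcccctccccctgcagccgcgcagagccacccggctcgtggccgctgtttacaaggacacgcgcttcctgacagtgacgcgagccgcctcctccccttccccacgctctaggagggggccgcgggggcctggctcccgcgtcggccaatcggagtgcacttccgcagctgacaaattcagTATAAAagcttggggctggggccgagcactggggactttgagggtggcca
Ier3, chr17:35821463-35821762 (+ strand): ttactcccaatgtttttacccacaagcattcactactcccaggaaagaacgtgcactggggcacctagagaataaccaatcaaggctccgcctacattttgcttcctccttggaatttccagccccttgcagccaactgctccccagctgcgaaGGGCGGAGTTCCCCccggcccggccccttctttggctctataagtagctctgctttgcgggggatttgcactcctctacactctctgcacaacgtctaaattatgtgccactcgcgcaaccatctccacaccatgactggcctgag
Fos, chr12:85473640-85473939 (+ strand): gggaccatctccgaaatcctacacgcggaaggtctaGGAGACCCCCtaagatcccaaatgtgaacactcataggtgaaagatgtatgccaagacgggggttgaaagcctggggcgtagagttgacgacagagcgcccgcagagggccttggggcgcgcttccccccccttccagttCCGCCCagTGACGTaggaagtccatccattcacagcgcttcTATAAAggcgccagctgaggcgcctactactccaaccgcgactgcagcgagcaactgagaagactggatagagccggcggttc
The Zfp36 promoter held a CArG box, CCATAAAAGG, at −58 to −49, counted with the first transcribed base as 1 and the base before it as −1. A CArG box was present in 1 of the 8 promoters and in 1.63% of all 32851 promoters of the same length. The CArG box shares its first base with a GC box, and an Egr motif lies further upstream at −105 to −97. Ier3 and Fos each held an NF-κB motif (4.51% of all promoters), as did Fosb, which is not printed. In Ier3 it spans −92 to −83 and shares its first bases with a GC box, and in Fos it spans −214 to −205. Of the 8 motifs as written, the Jun window matched the GC box only (35.7% of all promoters). The Junb window matched the TATA box only (13.6%), placed at the annotated start. No promoter of the 8 held an exact match to the AP-1 motif TGANTCA (7.81% of all promoters) or the Ets motif CCGGAAGT (3.89%). These matches describe letters in a window and do not show binding. Only exact matches were marked, so variant sites inside a window were not counted. The Jun window, for instance, holds TGACATCA, which neither TGANTCA nor TGACGT matches. Bases further upstream were not searched, so a motif without a match here may still lie outside the window.

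Values are the authors' deposited log2 expression, and a difference of 1 is 2-fold. A gene counts as past the level minimum where its mean over the 3 arrays is at least 4.55, the median of all named genes. With 1 array per dose no difference has a replicate check, and no test was run. Of the 10 genes, 5 were past the level minimum (Junb, Jund, Ier3, Atf3 and Zfp36) and 5 were below it (Fos, Fosb, Jun, Egr1 and Ier2).

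The 10 genes differed widely among themselves at 2.5 Gy. They were chosen with earlier results of these data known, so shares among them are not independent support. Zfp36, Junb and Ier3 were at least 2-fold higher than unirradiated, which is 3 of the 5 genes past the level minimum, against 1.15% of the 11593 genes past it. After quantile normalization or loess the count was 2, without Ier3. Counting all 10 genes without the minimum, Jun joined them, making 4, against 0.94% of all named genes. No gene of the 10 was 2-fold lower (0.578% of genes past the minimum and 0.638% of all named genes were). All 10 differences were above 0, from 0.07 for Fosb to 1.96 for Zfp36, where 46.6% of all named genes were above 0. Their median was 0.54, beside −0.02 over all named genes. The 5 past the minimum had a median of 1.03 as deposited, beside 0.02 over all genes past it. After quantile normalization it was 0.81 and after loess 0.84, each beside −0.01. After median centring it was 1.08, beside 0.07. In bulk RNA, a change in the share of cells that express a gene and a change in RNA per cell cannot be told apart.

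**Figure D1:**
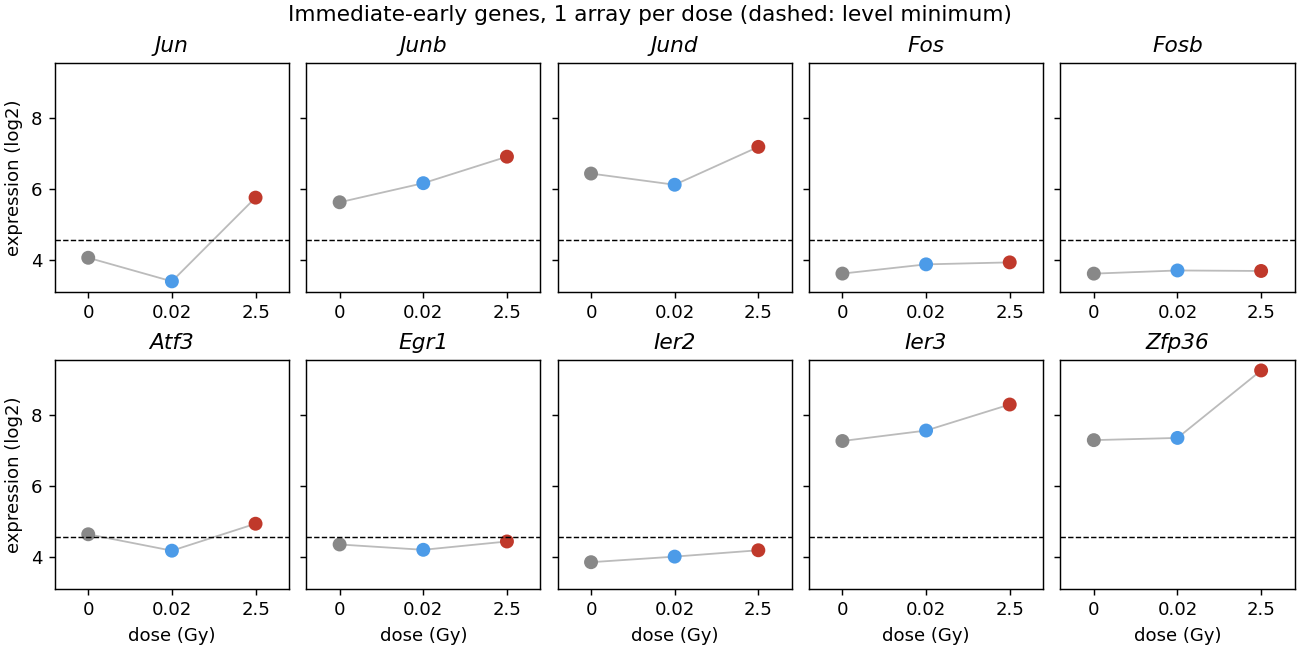
Deposited log2 expression (vertical axis) of the 10 immediate-early genes by dose in Gy (horizontal axis, evenly spaced), with 1 point per array and a dashed line at the level minimum of 4.55. Every gene except Fosb has its highest point at 2.5 Gy, and Fos, Fosb, Egr1 and Ier2 stay under the line at every dose.

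Zfp36, the gene of the mRNA decay factor tristetraprolin (Entrez gene 22695), was at 7.28, 7.34 and 9.24 on the 0, 0.02 and 2.5 Gy arrays. Both lower values lie close together, and the 2.5 Gy value stands alone above them. The difference of 2.5 Gy from unirradiated was 1.96, a 3.90-fold difference, and that from 0.02 Gy was 1.90. Only 14 of the 11593 genes past the level minimum, Zfp36 included, had a difference of 2.5 Gy from unirradiated as large. The 0.02 Gy difference from unirradiated was 0.06 in the deposited values, but −0.15 after quantile normalization and −0.17 after loess, so its sign depends on the scaling.

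Among the Jun subunit genes, all 3 were highest at 2.5 Gy. Jun, the founding AP-1 gene (16476), was at 4.05, 3.39 and 5.75 by rising dose. It passed the level minimum on the 2.5 Gy array only. The deposited difference of 2.5 Gy from unirradiated was 1.69, and from 0.02 Gy it was 2.36, with the 0.02 Gy value 0.66 below unirradiated. Signal over background is not known for the 2 lower arrays, both below the level minimum, so the size of these differences, and each count that includes Jun, rests on values that may not lie above background. Of the 2319 genes in its decile of mean level, 6 had a difference of 2.5 Gy from unirradiated at least as large, Jun included.

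Junb, whose product opposes Jun at many promoters and restrains stem cell and myeloid expansion in mice (16477), was at 5.62, 6.15 and 6.90. Its values were higher at each dose than at the one before, with 0.02 Gy 0.54 above unirradiated and 2.5 Gy 0.75 above 0.02 Gy. The full difference of 2.5 Gy from unirradiated was 1.28, a 2.43-fold difference. In its decile of mean level, 10.8% of genes had a 0.02 Gy difference as high as that of Junb and 0.518% a 2.5 Gy difference as high.

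Jund, the Jun subunit gene that is usually expressed without a stimulus (16478), was at 6.43, 6.11 and 7.18. The 2.5 Gy value was 0.75 above unirradiated, short of 2-fold, and 1.07 above 0.02 Gy, just past it. The 0.02 Gy value was the lowest of the 3, at 0.32 below unirradiated. Jun and Jund thus had their lowest value at 0.02 Gy, and Junb its lowest on the unirradiated array.

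The Fos subunit genes were low on all 3 arrays. Fos (14281) was at 3.61, 3.87 and 3.92, and Fosb (14282) at 3.61, 3.70 and 3.68, all below the level minimum. The differences of 2.5 Gy from unirradiated were 0.32 for Fos and 0.07 for Fosb. In its decile of level, 10.3% of genes had a difference as high as that of Fos, and 30.4% one as high as that of Fosb. Values this low cannot show whether either gene changed, since signal over background is not known.

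Atf3, a stress-induced gene whose product pairs with Jun subunits (11910), was at 4.63, 4.17 and 4.93. The 3 values lie around the level minimum, with the 0.02 Gy array below it. The 2.5 Gy value was 0.30 above unirradiated and 0.76 above 0.02 Gy. The 0.02 Gy value was 0.46 below unirradiated, and 11.6% of genes in its decile of level lay as low.

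Egr1 (13653) and Ier2 (15936) were below the level minimum on every array. Egr1 was at 4.34, 4.19 and 4.43, and its differences of 2.5 Gy from unirradiated (0.08) and from 0.02 Gy (0.23) were exceeded or matched by 28.3% and 21.8% of genes of like level. Ier2, a small nuclear protein gene, was at 3.84, 4.002 and 4.18, with a difference of 0.34 between 2.5 Gy and unirradiated.

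Ier3, which encodes a survival and stress response protein and is itself a target of tristetraprolin (15937), was at 7.26, 7.55 and 8.28. The 2.5 Gy value was 1.03 above unirradiated, a 2.04-fold difference that lies just past 2-fold, and 0.73 above 0.02 Gy. After quantile normalization the difference from unirradiated was 0.81 and after loess 0.84, both short of 2-fold. The 0.02 Gy value was 0.29 above unirradiated, and 37.9% of genes in its decile of level were as high.

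At 0.02 Gy none of the 10 genes was 2-fold higher or lower than unirradiated. Over the genes past the level minimum, 1.33% were higher and 1.14% lower by that size, and over all named genes 1.12% and 1.17%. The balance of these calls over all genes past the minimum moved with the scaling, with 154 higher and 132 lower as deposited, 200 and 108 after median centring, 128 and 155 after quantile normalization and 123 and 148 after loess. Of the 10 genes, 6 were above 0 and 4 below, from −0.66 (Jun) to 0.54 (Junb), and their median was 0.08, beside −0.02 over all named genes. Both dose comparisons share the unirradiated array.

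Set directly against 0.02 Gy, the 2.5 Gy array was at least 2-fold higher, as deposited, for Jun, Zfp36 and Jund. Past the level minimum these are 2 of 5 genes (Zfp36 and Jund), against 1.44% of all genes past it, and without the minimum 3 of 10, against 1.22%. None was 2-fold lower (1.06% past the minimum, 0.996% of all named genes). Fosb alone was below 0, at −0.01. Junb (0.75), Ier3 (0.73) and Atf3 (0.76) lay close to each other and short of 2-fold. The median of the 10 was 0.74, beside 0.00 over all named genes. Zfp36 and Jun were at least 2-fold above both other arrays, and so were 0.5% of genes past the minimum and 0.414% of all named genes.

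**Figure D2:**
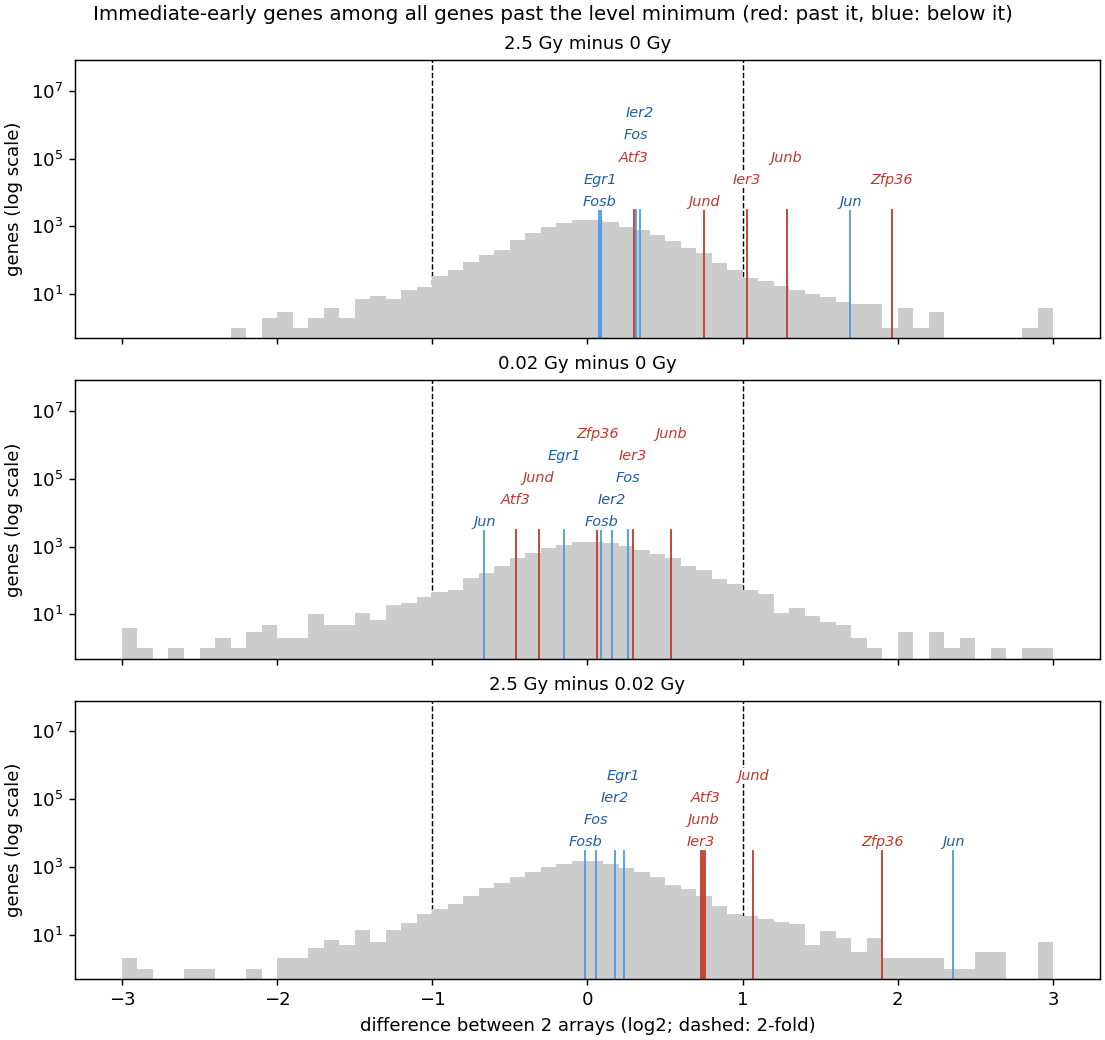
Histograms of log2 differences between 2 arrays (horizontal axis; dashed lines at 2-fold; values beyond 3 in the end bins) over the 11593 genes past the level minimum (vertical axis, log scale), with a vertical line per immediate-early gene, red if past the minimum and blue if below it. Zfp36 (1.96) and Jun (1.69) lie in the right tail of 2.5 Gy minus 0 Gy, and all 10 genes lie inside 2-fold in 0.02 Gy minus 0 Gy.

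The other genes of AP-1 and the related Maf genes, only some of whose products pair with Jun subunits, were mostly within 2-fold at both doses. Of 14 listed, 13 were measured and 10 were past the level minimum. Mafg, a small Maf gene whose product pairs with CNC factors such as Nrf2, was the only one of the 10 that was 2-fold higher at 2.5 Gy than unirradiated, against 1.15% of all genes past the minimum. Its values were 4.45, 5.03 and 5.89, with the unirradiated value below the level minimum and a difference of 1.44. Batf2 had the lowest difference at −0.43 (5.74, 6.13 and 5.31). The median of the 10 was −0.04, beside 0.02 over all genes past the minimum, and it was 0.01 after median centring, −0.11 after quantile normalization and −0.12 after loess. Fosl2, the Fos family gene past the minimum, was at 5.42, 5.35 and 5.31, and Fosl1 was below the minimum on every array. At 0.02 Gy no gene of the list was 2-fold higher or lower, and Atf7 (0.87) was the highest and Mafk (−0.24) the lowest. In 2.5 Gy minus 0.02 Gy, Mafg was highest at 0.87 and Batf2 lowest at −0.82.

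Of the Egr genes and their Nab corepressors, only Nab2 was past the level minimum, at 6.41, 6.33 and 6.35. Egr2, Egr3 and Egr4 were below it on every array, as was Egr1, and no gene of the 5 differed by 2-fold in any comparison. Egr2 had the lowest differences from unirradiated, −0.46 at 2.5 Gy and −0.71 at 0.02 Gy, and Nab1 the highest, 0.46 and 0.45. In the direct comparison of 2.5 Gy with 0.02 Gy, Egr3 was highest at 0.33 and Egr4 lowest at −0.13.

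The relatives of Zfp36 encode decay factors that bind the same AU-rich elements. Zfp36l2, which is needed for blood stem cell maintenance in mice, was at 8.40, 8.999 and 9.19. Its 2.5 Gy value was 0.79 above unirradiated, and its 0.02 Gy value was already 0.60 above. Zfp36l1 was at 7.30, 7.89 and 7.62, with its highest value at 0.02 Gy. Neither was 2-fold higher in any comparison, and 2.5 Gy minus 0.02 Gy was 0.19 for Zfp36l2 and −0.27 for Zfp36l1, where Zfp36 had 1.90. The sizes depend on the scaling. At 0.02 Gy the median of Zfp36l1 and Zfp36l2 was 0.60 above unirradiated as deposited and 0.67 after median centring. It was 0.34 after quantile normalization and 0.36 after loess. At 2.5 Gy that median was 0.55 as deposited, 0.60 after median centring, 0.33 after quantile normalization and 0.35 after loess. Zfp36l3 was below the minimum on every array (3.89, 3.57 and 3.94).

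**Figure D3:**
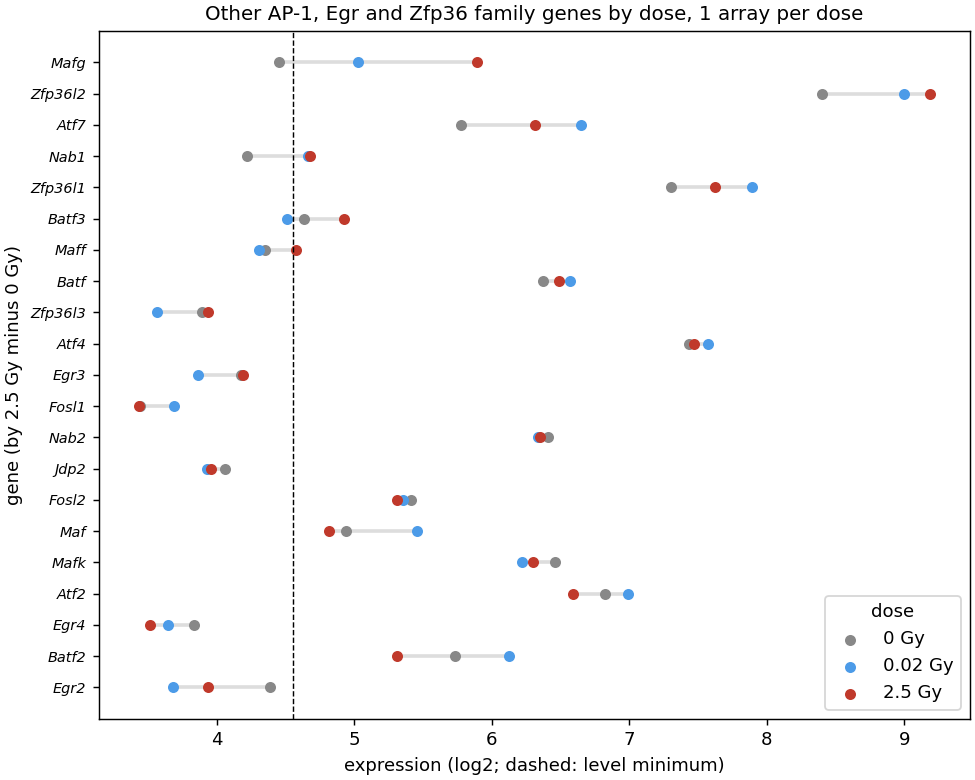
Deposited log2 expression (horizontal axis) of other AP-1, Egr, Nab and Zfp36 family genes (vertical axis, ordered by 2.5 Gy minus 0 Gy), with 1 point per array coloured by dose and a dashed line at the level minimum. Mafg has the widest gap between 2.5 Gy and 0 Gy (1.44), and Zfp36l1 and Zfp36l2 are higher on both irradiated arrays than at 0 Gy.

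Other immediate-early genes were read from a list of 42, chosen with earlier results of these data known, so its shares are not independent support. All 42 were measured, 32 of them past the level minimum. At 2.5 Gy, 4 of the 32 were at least 2-fold higher than unirradiated and none lower, against 1.15% and 0.578% of all genes past the minimum. They were Bhlhe40, a circadian and stress response repressor gene (1.71; values 4.65, 4.57 and 6.36), Myc, the growth regulator gene (1.61; 6.06, 6.62 and 7.67), Btg2, an antiproliferative p53 target (1.55; 4.40, 5.24 and 5.95, with the unirradiated value below the minimum), and Gadd45b, a stress sensor gene (1.03; 4.82, 4.71 and 5.85). Bhlhe40 and Gadd45b were near or below unirradiated at 0.02 Gy, while Btg2 and Myc were above it. Above 0 were 25 of the 32 (78.1%, beside 53.4% of all genes past the minimum), and the median was 0.29, beside 0.02. Klf2 was the lowest past the minimum at −0.44, and Errfi1, below the minimum, the lowest of all at −0.66.

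At 0.02 Gy none of the 32 was 2-fold higher or lower than unirradiated, with Btg2 highest (0.84) and Ier5l lowest (−0.54). Their median was −0.02 as deposited and 0.04 to 0.05 after the other scalings. In 2.5 Gy minus 0.02 Gy, 4 were at least 2-fold higher, against 1.44% of all genes past the minimum: Bhlhe40 (1.79), the kinase gene Sik1 (1.24; 6.20, 5.80 and 7.04), Gadd45b (1.14) and Myc (1.04). Errfi1 was again lowest at −0.50. The nuclear receptor genes Nr4a1, Nr4a2 and Nr4a3 differed by at most 0.36 in each of the 3 comparisons; they are named after their values were seen.

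**Figure D4:**
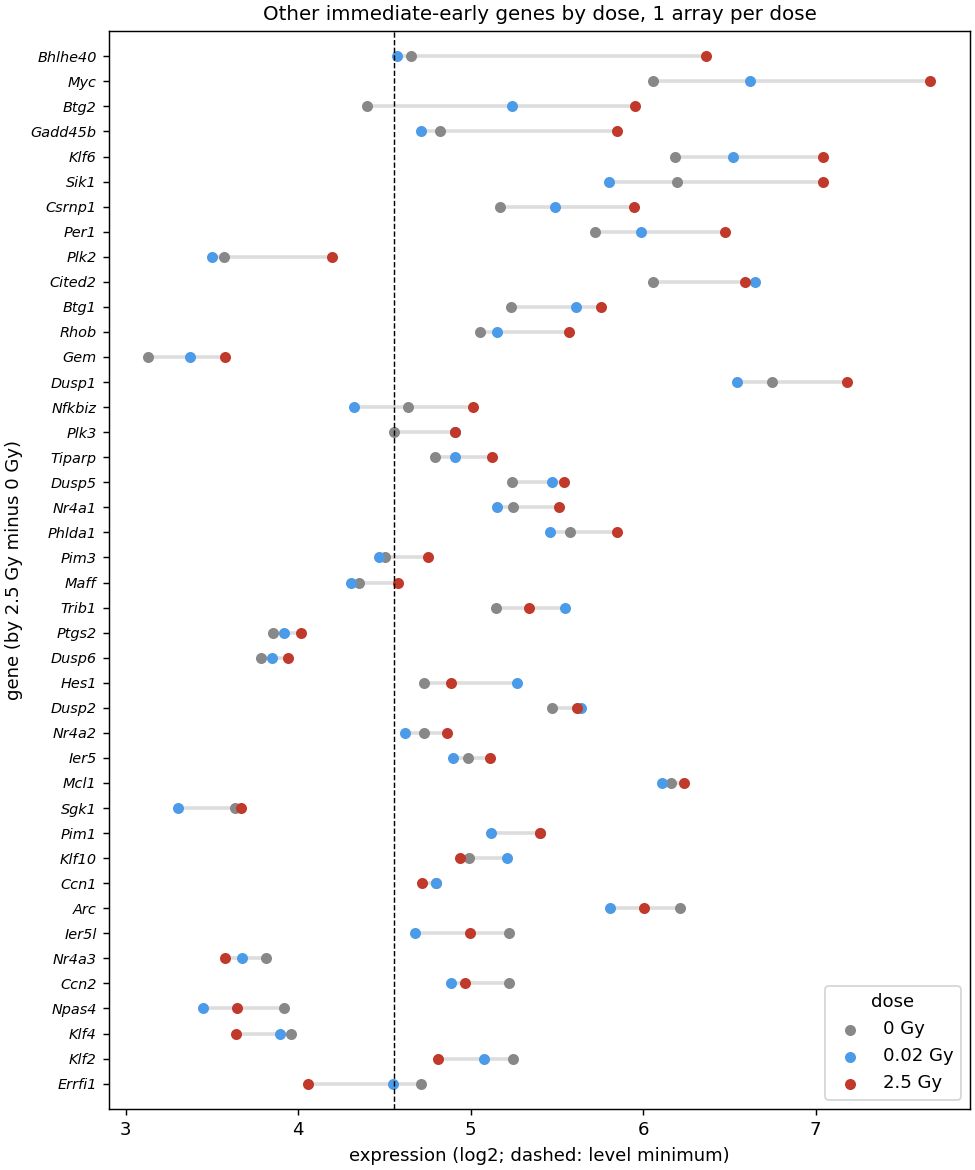
Deposited log2 expression (horizontal axis) of 42 other immediate-early genes (vertical axis, ordered by 2.5 Gy minus 0 Gy), with 1 point per array coloured by dose and a dashed line at the level minimum. Bhlhe40, Myc, Btg2 and Gadd45b at the top have 2.5 Gy points at least 1 log2 unit above their 0 Gy points.

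Genes upstream of immediate-early transcription were also listed: serum response factor and its ternary complex partners, the CREB group and MAP kinases. Of 23 listed, 19 were measured, 17 were past the level minimum, and none was 2-fold higher or lower in a comparison as deposited. Srf itself was at 5.29, 5.12 and 5.10. At 2.5 Gy against unirradiated, Mapkapk2, the kinase that phosphorylates tristetraprolin, was highest at 0.73 (5.90, 6.34 and 6.63), and Elk1, a ternary complex factor gene, lowest at −0.35. The median of the 17 at 2.5 Gy was 0.10, beside 0.02 over all genes past the minimum. At 0.02 Gy the highest was Map2k1 (0.79) and the lowest Elk1 (−0.54). The median of the 17 at 0.02 Gy was 0.33, beside 0.04 over all genes past the minimum. After quantile normalization or loess it was 0.23, beside −0.004, and after median centring 0.40, beside 0.11. In 2.5 Gy minus 0.02 Gy the ribosomal S6 kinase gene Rps6ka3 was lowest at −0.995, past 2-fold after median centring, which called 1 gene of the list lower. Map2k2 was the highest there at 0.35.

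The list of tristetraprolin targets was also chosen with earlier results of these data known, so its shares are not independent support. Of 15 mRNAs known as tristetraprolin targets, all were measured and 7 were past the level minimum. At 2.5 Gy, 4 were at least 2-fold higher than unirradiated and none lower, against 1.15% and 0.578% of all genes past the minimum: Zfp36 and Ier3, described above, and the chemokine genes Cxcl2 (1.76; 6.02, 5.36 and 7.78) and Ccl3 (1.05; 6.34, 6.76 and 7.40). Zfp36 and Ier3 were already counted with the immediate-early genes above, so target counts that include them are not separate results. Only Cxcl2 and Ccl3 were new here. After quantile normalization or loess, 2 of the 7 were past 2-fold. Zfp36 was among them (1.73 and 1.76) and Ier3 was not (0.81 and 0.84), so Cxcl2 and Ccl3 were not both past 2-fold there. Il1b, an interleukin gene below the minimum, was lowest at −0.52 (4.70, 4.25 and 4.18). Tnf, the classical target, was at 5.46, 5.33 and 5.56, and Il6 was below the minimum on every array. At 0.02 Gy none was 2-fold higher or lower, with Ccl3 highest (0.42) and Cxcl2 lowest (−0.66). In 2.5 Gy minus 0.02 Gy, Cxcl2 (2.42) and Zfp36 (1.90) were at least 2-fold higher (1.44% of all genes past the minimum were), and Il6 was lowest at −0.23. Transcript levels alone do not separate transcription from decay.

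**Figure D5:**
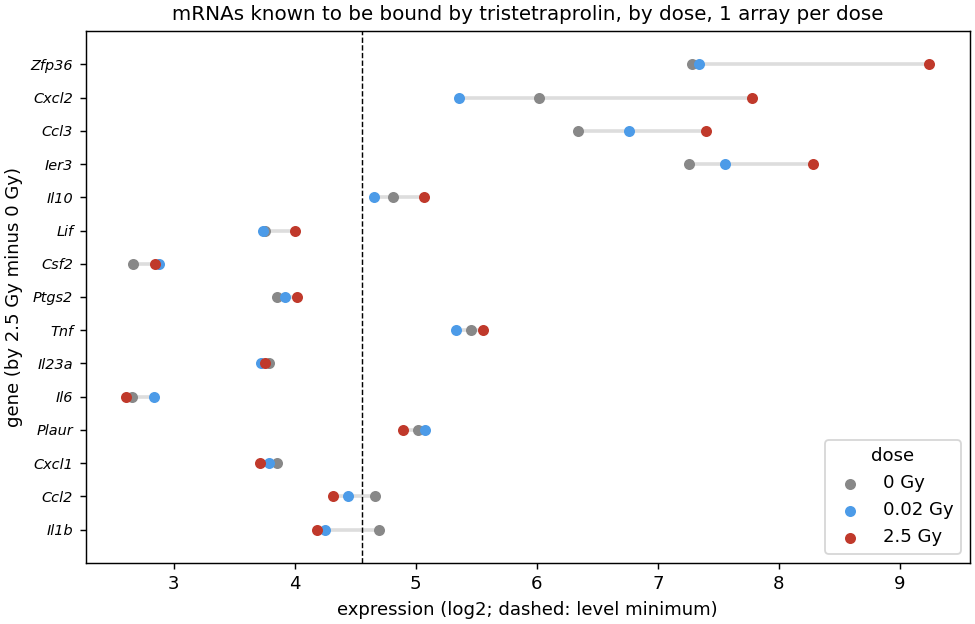
Deposited log2 expression (horizontal axis) of 15 mRNAs known to be bound by tristetraprolin (vertical axis, ordered by 2.5 Gy minus 0 Gy), with 1 point per array coloured by dose and a dashed line at the level minimum. Zfp36, Cxcl2, Ccl3 and Ier3 have 2.5 Gy points at least 1 log2 unit above their 0 Gy points, and Il1b has its 0 Gy point highest.

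The genes whose 3 values, each centred on the gene's own mean, lay nearest to those of Zfp36 were Iqcj, Bhlhe40 and Nfkbie, among genes past the level minimum outside the 10. Iqcj was at 3.88, 4.03 and 5.88 (root mean square difference 0.039) and passed the level minimum only through the 2.5 Gy array. Bhlhe40 lay at a distance of 0.10, and Nfkbie, an inhibitor of NF-κB, at 0.13 with 4.62, 4.44 and 6.63. With 3 arrays this is a description of shape only.

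The sort markers and markers of other cells were read on the same arrays. All 7 measured genes of the sort marker and stem cell list reached the level minimum on all 3 arrays, Kit, Slamf1 (CD150) and Ptprc (CD45) among them. Cd48, selected against in the sort, was below it on every array. Flt3, which encodes Flk2 and was also selected against, reached the minimum on every array, at 4.601, 4.95 and 4.93. Some mature myeloid genes were higher on both irradiated arrays. Of 12 measured, 3 were at least 2-fold higher at 2.5 Gy than unirradiated (S100a8 1.24, S100a9 1.56, Ly6c2 1.04), against 0.94% of all named genes, and 5 of the 12 were below 0. On a linear scale the summed level of the list was 399 at 0 Gy, 637 at 0.02 Gy and 725 at 2.5 Gy. Without S100a8 and S100a9 it was 238 at 0 Gy, 273 at 0.02 Gy and 280 at 2.5 Gy. Ngp, Camp, Ltf and Cd14, also on that list, were below the level minimum on every array. S100a8 (1.30) and S100a9 (1.12) were higher at 0.02 Gy too. Of the 4 immediate-early genes 2-fold higher at 2.5 Gy, Junb (0.54), Ier3 (0.29) and Zfp36 (0.06) were above unirradiated at 0.02 Gy as deposited. Jun was below it (−0.66). The part of the myeloid genes in the 2.5 Gy differences was not tested. The summed level of B and T cell markers was 140 at 0 Gy, 126 at 0.02 Gy and 138 at 2.5 Gy, and that of erythroid markers 106, 95.1 and 108. On every array 5 of the 7 B and T cell genes and 2 of the 4 erythroid genes measured were below the level minimum. For megakaryocyte markers the sum was 832, 955 and 993. Without Pf4 the megakaryocyte sum was 303 at 0 Gy, 343 at 0.02 Gy and 262 at 2.5 Gy. At 2.5 Gy, 6 of the 7 megakaryocyte genes were below unirradiated, as were 12295 of the 23185 named genes. The 6 include Gp6, which was below the level minimum on every array (−0.07). The median of the 6 past the level minimum was −0.20. At 0.02 Gy, 5 of the 6 past the minimum were above unirradiated, beside 54.2% of all genes past it, with a median of 0.14.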

How the data were processed

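Expression was measured on 3 arrays, 1 per dose, hybridised with biotinylated cDNA (Affymetrix WT Sense Target assay), per the labels' protocols. The deposited values are the authors' log2 expression, 1 per probe set; the scale was read from the values. Partek is named without a version or role, per the submitters' processing notes; how background and normalization were handled is not given in the sources used here, so signal over background is unknown. The array medians over named genes were 4.59 (0 Gy), 4.53 (0.02 Gy) and 4.55 (2.5 Gy).

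Of 25206 probe sets, 23185 had 1 gene symbol in the platform annotation. The 2021 with no symbol or more than 1 were left out. Of 153 listed symbols, 142 matched; the rest were not used here. Array differences were computed per gene from the log2 values (pandas 2.3.3) and counted past 2-fold among genes whose mean over the arrays reached the median of named genes. With 1 array per dose no test was run, and the number of arrays limits the precision. The counting step was tested on simulated data. The members and gene lists were chosen with earlier results of these data known. Named were every member, genes of the other lists past 2-fold, their highest and lowest, and the 3 patterns nearest to the member with the largest 2.5 Gy difference; other named genes were chosen after their values were seen. Alternatives were quantile normalization, median centring, loess (span 0.3), a level minimum at the 75th percentile, none at all, and fold sizes of 1.5 and 3.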

Additional observations from a re-analysis of the deposited data

How the results depend on the processing

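No paired analysis was possible because there is a single array per dose and nothing was tested. The 90 member differences under the 3 other scalings moved by at most 0.24. In the 2.5 Gy comparison with unirradiated, quantile normalization and loess left Ier3 (0.81 and 0.84) short of 2-fold. The sign of Zfp36 at 0.02 Gy turned in both (−0.15 and −0.17). Without the level minimum Jun joins the counts.

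Fold size and level minimum set by construction which genes can be counted. At 3-fold, 1 member was higher at 2.5 Gy than unirradiated and 1 than 0.02 Gy; at 1.5-fold, 5 were higher than 0.02 Gy. For the other immediate-early genes, 2.5 Gy against unirradiated gave 1 at the 75th percentile minimum, 8 at 1.5-fold and 2 at 3-fold. Against 0.02 Gy these were 2, 7 and 1, and 0.02 Gy against unirradiated gave 2 at 1.5-fold. Signal over background is unknown, which limits Jun, Fos, Fosb, Egr1 and Ier2 most.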
